A study of Capra hircus with 30 samples.

Results

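Heat shock proteins and the DNAJ co-chaperones that work with them were examined in granulosa cells of the goat ovary, which line the follicle around the oocyte and make oestrogen. Membership was set by gene symbol. A row of the table was taken when its NCBI gene number carries a RefSeq symbol of the HSP90, HSPA (HSP70), HSPB (small heat shock protein), HSPD1, HSPE1, HSPH1, DNAJA, DNAJB or DNAJC series. This gave 64 genes of the 20125 features. RefSeq, for the goat assembly ARS1.2, lists 69 such symbols, and the other 5 (DNAJC24, DNAJC5G, HSPB8, HSPB9 and HSPB11) were not analysed here. HSPA1A, the classical heat-inducible HSP70, had no symbol among the features and was not analysed here either.

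Total RNA from granulosa cells of Ji'ning grey goats was made into 30 libraries, with no added agent named in the labels. They fall into 6 groups of 5. Goats of the high fertility class, which bear more kids per birth, gave HLG from large, HMG from medium and HSG from small follicles. The low fertility class gave LLG, LMG and LSG in the same order. A library is named here by its group and the number in its label (5, 7, 8, 9 or 10). Each library holds a small number of cells, although the series calls the assay single-cell RNA sequencing. The study collected follicles of several goats in each fertility class and split the granulosa cells of each size into samples, and which animals a library holds is not stated. The p-values below therefore measure only the spread between these libraries, which may be technical. The ages of the goats were not used here.

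Chaperones bind unfolded or partly folded proteins and keep them from aggregating. The DNAJ proteins, also called HSP40s, bring such proteins to HSP70 and start its ATPase, exchange factors such as HSP110 then release the nucleotide, and many signalling proteins pass from HSP70 on to HSP90. The mitochondria and the endoplasmic reticulum hold their own HSP70, HSP90 and DNAJ members. In the ovary this machinery is best known for the folding of steroid hormone receptors by HSP70 and HSP90. Some members are present in nearly every cell, whereas others rise after heat or other stress.

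The libraries differed widely in how much they held. Between 301 and 9256 features were above 0 FPKM (fragments scaled by the length of the gene and the mapped total of the library), and the FPKM of a library summed to between 33640 and 82952. The 58 features above 0 in every library held 87.33% of the FPKM on average. Over the 6058 features tested below, the highest Spearman correlation between any 2 libraries was 0.216. Libraries of the same group did not pass this value either. The deposited table gives no read numbers, and those in the study's list of mapping results were not used here, so depth is not set beside the values and a gene listed at 0 may have been present and not sampled. LLG-5, LLG-7, LLG-10 and HSG-5 had fewer than 1000 features above 0, and the tests of named genes were repeated without them. Granulosa markers were thinly covered: INHBA was above 0 in 14 libraries, CYP19A1 (aromatase) in 10, FST in 8, LHCGR in 4, INHA in 2, and FSHR and AMH in 1 each, and FOXL2 was not analysed here. Of theca markers, PTCH1 was above 0 in 18 libraries and STAR in 7. Of the 4 endothelial markers, KDR was above 0 in 14 libraries, PECAM1 in 6, CDH5 in 5 and VWF in 4. Immune cells were represented by CD14 in 8 libraries, PTPRC in 6, CD68 in 2 and CD3E in 1. The oocyte list had GDF9 in 6 libraries, DAZL, ZP3 and ZP2 in 2 apiece and BMP15 in 1. ALAS2 (red cell lineage) was above 0 in 5. Their part in the results was not tested. Within such samples fewer cells of a type and less RNA per cell cannot be told apart.

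No chaperone gene was above 0 in all 30 libraries, and most were seen in a minority of them. The median gene was above 0 in 9 libraries, against 5 for all features with an NCBI number. Of the 64 genes, 18 (28.1%) were above 0 in at least 15 libraries, compared with 13.55% of numbered features, and 24 (37.5%) were above 0 in at most 5, compared with 51.28%. Without the 4 poorest libraries, 24 genes (37.5%) were above 0 in at least 13 of the 26 left, compared with 18.1% of all features. For 7 of the genes a single library was above 0. Of the 1920 values, 623 (32.4%) were above 0, and for numbered features the share was 23.9%. Where a chaperone gene was above 0 its median was 0.54 FPKM, close to the 0.52 FPKM of all numbered features.

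**Figure D1:**
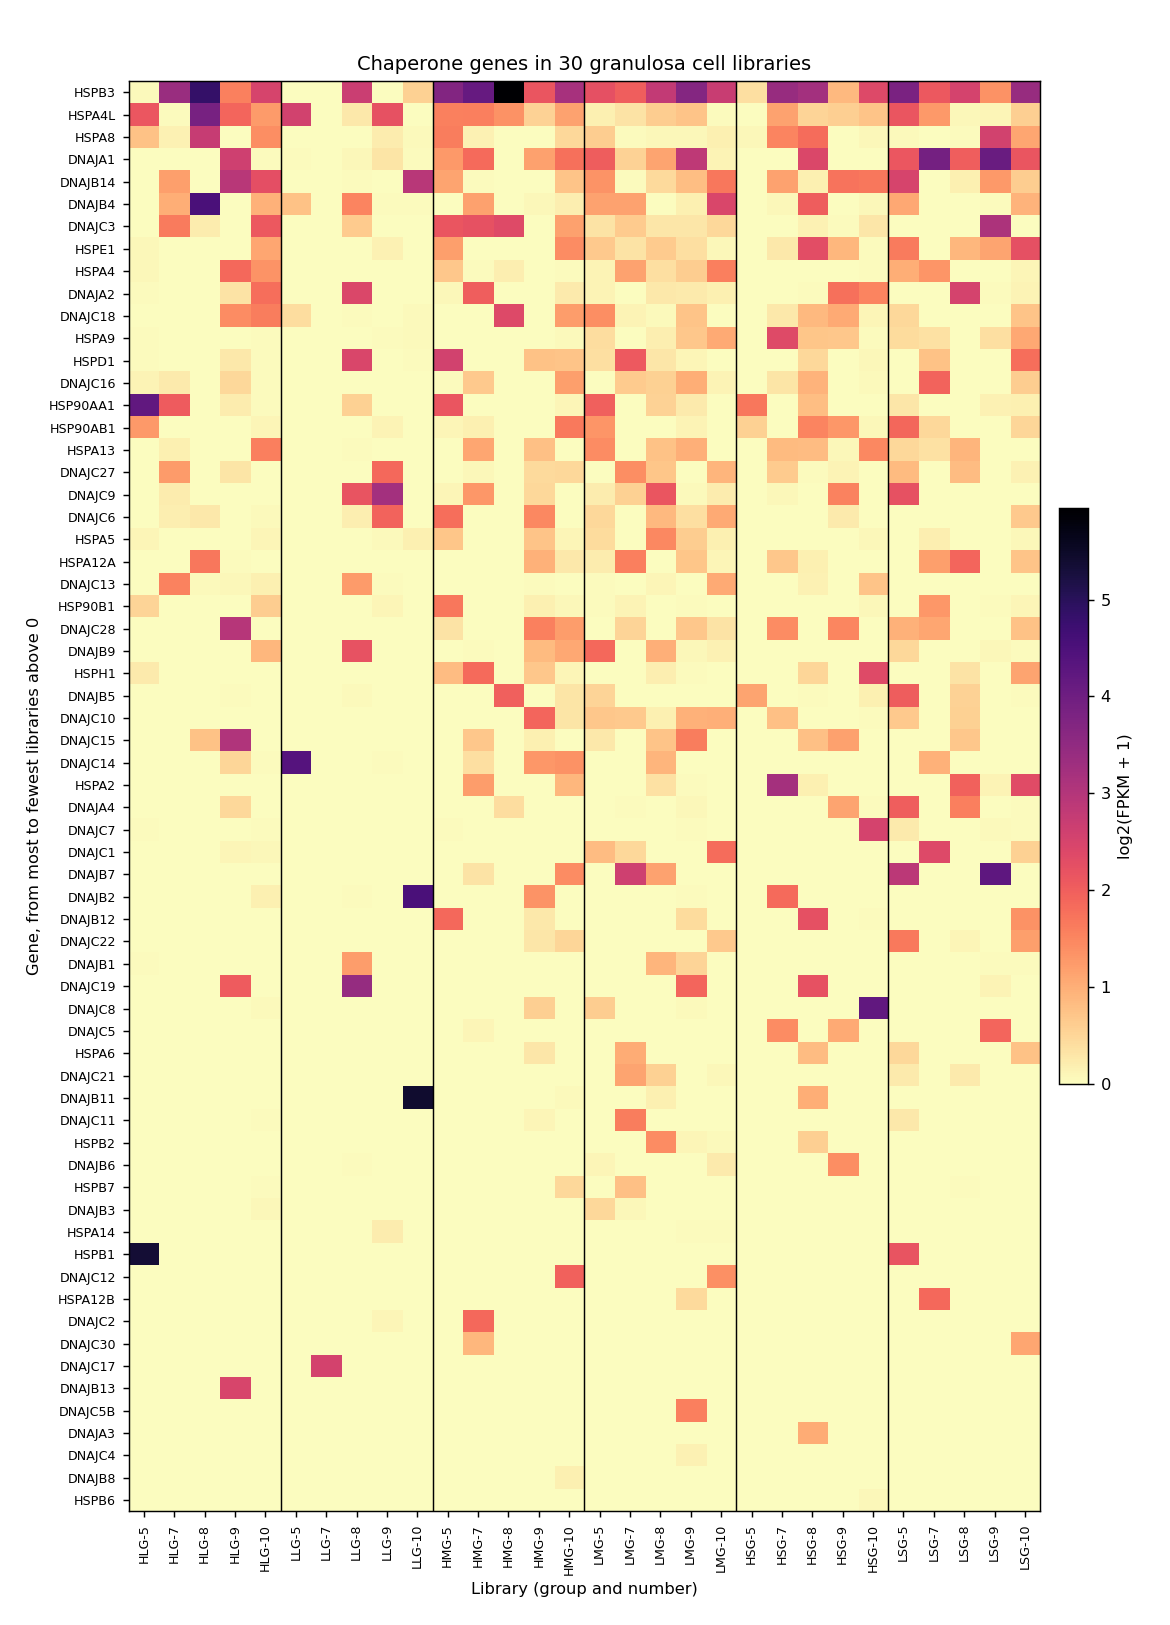
FPKM of the 64 chaperone genes (rows, from most to fewest libraries above 0) in the 30 libraries (columns, black lines between groups), coloured by log2(FPKM + 1). The upper rows, led by HSPB3 and HSPA4L with 27 libraries each, are filled in most columns, whereas the lower rows are empty but for single libraries.

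The families were covered unequally. Both mitochondrial chaperonin genes were above 0 in most libraries (median 17). The medians were 15 libraries for the 3 HSP90 genes, 14 for the 11 HSP70 genes, 13 for the 4 DNAJA genes and 11 for HSPH1 alone. They were 7 for the 25 DNAJC genes, 6 for the 13 DNAJB genes and 4 for the 5 small heat shock proteins, of which HSPB3 alone passed 4. Families follow the symbols, so HSPA4 (18 libraries) and HSPA4L (27), of the HSP110-like branch, were counted as HSP70. The medians depend on this naming, which also leaves out the chaperones CRYAB, TRAP1 and HYOU1. The families are small, and no test was made between them.

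**Figure D2:**
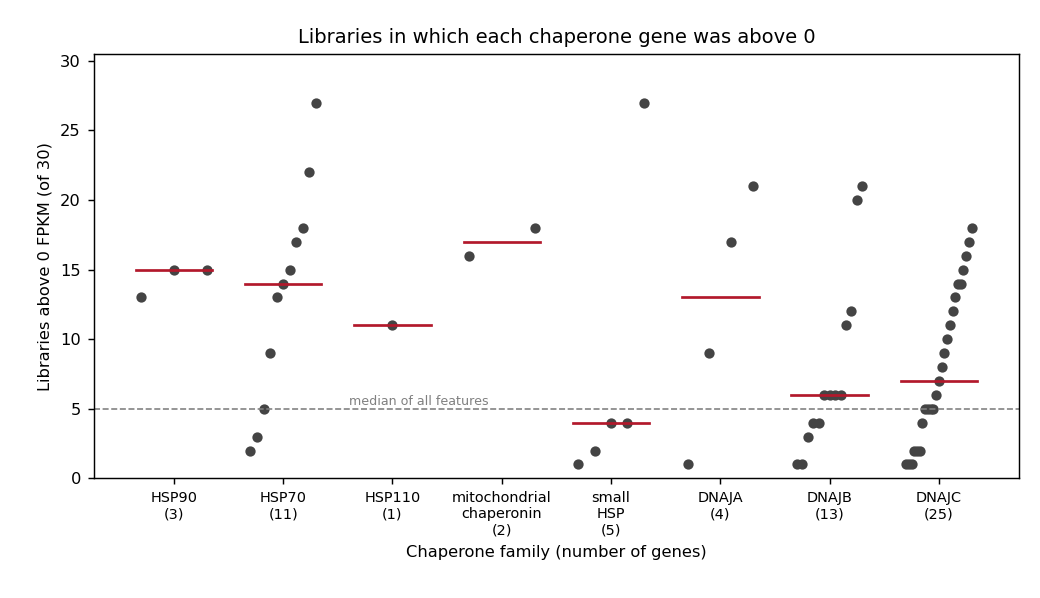
Number of libraries (of 30) in which each chaperone gene was above 0 FPKM, by family as set by symbol. Each gene is a point, with a red line at the family median and a dashed line at the median of all features (5). The medians run from 17 for the mitochondrial chaperonin genes to 4 for the small heat shock proteins, and HSPB3 stands far above the other small heat shock proteins.

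Coverage of the chaperones moved with that of the library. The number of chaperone genes above 0 was 18.4 ± 8.53 in HLG, 10.6 ± 7.77 in LLG, 22.2 ± 9.58 in HMG, 31 ± 5.39 in LMG, 19.4 ± 9.29 in HSG and 23 ± 6.89 in LSG (mean ± SD, n = 5 libraries each). LMG, from 26 to 40 genes, lay above LLG, from 1 to 20 genes, with no overlap. Without the poorest libraries LLG was left with LLG-8 and LLG-9, at 20 and 16 genes. The share of all numbered features above 0 moved with it, from 10.35% on average in LLG to 38.77% in LMG, and no test was made of the number of genes. In 29 of 30 libraries the share of chaperone genes above 0 exceeded the share of numbered features. The exception was LSG-8, with 29.69% against 29.87%. Summed over the 64 genes, FPKM was 45.81 ± 22.31 in HLG, 31.64 ± 25.31 in LLG, 42.19 ± 19.39 in HMG, 28.15 ± 4.35 in LMG, 27.78 ± 15.66 in HSG and 42.37 ± 13.67 in LSG. The poorest LLG libraries ran from 4.85 to 71.74 FPKM, and LLG-8 and LLG-9 were at 37.24 and 18.6. These sums overlapped between all groups, and LMG, which had the most genes above 0, had the second lowest mean sum.

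**Figure D3:**
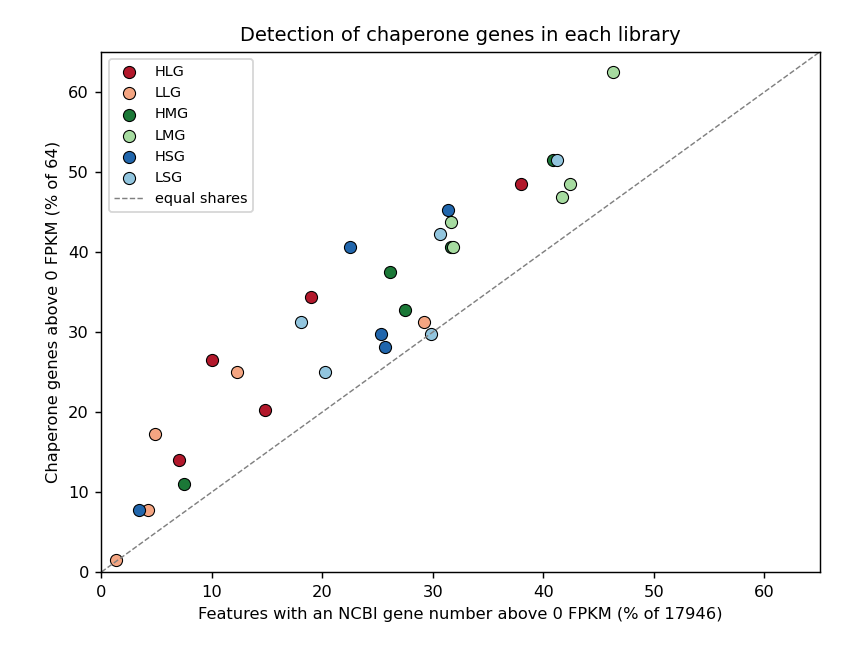
Share of the 64 chaperone genes above 0 FPKM (y axis, %) against the share of the 17946 features with an NCBI gene number above 0 (x axis, %), with a point per library coloured by group and a dashed line at equal shares. In 29 libraries the point lies above the line, and the 5 LMG libraries lie to the upper right while 3 LLG libraries lie near the origin.

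HSP90 chaperones hold steroid receptors in a form that can bind ligand. HSP90AA1, the stress-inducible cytosolic form, was above 0 in 15 libraries. Its values in HLG were 17.35, 3.16, 0, 0.17 and 0.02 FPKM for the libraries 5, 7, 8, 9 and 10, and in LLG only LLG-8 was above 0, at 0.48. In HMG the values above 0 were 3.44 (HMG-5) and 0.07 (HMG-10), and in LMG 2.97, 0.46 and 0.19. HSG held 2.22 and 0.75, and LSG held 0.23, 0.11 and 0.12. Thus HLG-5 alone carried 54.7% of the FPKM of HSP90AA1, and every group reached down to 0. HSP90AB1, the constitutive cytosolic form, was also above 0 in 15 libraries, with its highest value of 2.72 FPKM in LSG-5. The pair shared 10 libraries, and in 10 libraries neither was above 0. HSP90B1, the HSP90 of the endoplasmic reticulum, was above 0 in 13 libraries and highest in HMG-5 at 2.22 FPKM, with a median of 0.08 FPKM where it was above 0.

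By symbol the HSP70 family held 11 genes. HSPA4L, a member of its HSP110-like branch best known from the testis, was above 0 in 27 libraries. Only 49 numbered features (0.273%) were above 0 in at least 27. Its values were 3.38, 0.03, 13.56, 2.79 and 1.38 FPKM in HLG and 4.91, 0, 0.2, 3.61 and 0 in LLG. HMG gave 1.98, 1.99, 1.55, 0.47 and 1.22, and LMG gave 0.12, 0.26, 0.54, 0.66 and 0.02. HSG gave 0, 1.21, 0.43, 0.5 and 0.66, and LSG gave 3.45, 1.42, 0.06, 0.08 and 0.51. In HMG 4 of 5 values lay above the highest LMG value, whereas the large and small groups overlapped throughout.

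HSPA8, the constitutive cytosolic HSP70, was above 0 in 22 libraries but low in most of them, with a median of 0.145 FPKM where above 0. Its highest values were 5.66 in HLG-8, 4.89 in LSG-9, 2.51 in HSG-8 and 2.06 in HMG-5. LMG and LLG stayed at or below 0.52. HSPA4, an exchange factor of the same branch as HSPA4L, was above 0 in all 10 medium libraries, where it ranged from 0.01 to 2.03 FPKM. It was above 0 in 3 of 10 large libraries, all of HLG, and in 5 of 10 small ones. HSPA9, the mitochondrial HSP70, was above 0 in 17 libraries and highest in HSG-7, at 4.14 FPKM. HSPA9 did not pass 0.04 FPKM in HLG, LLG or HMG. HSPA5 (BiP), the HSP70 of the endoplasmic reticulum and a target of the unfolded protein response, was above 0 in 14 libraries, never above 1.79 FPKM (LMG-8). Its partner HSP90B1 was above 0 in 11 of those 14, and in 14 libraries neither was above 0. For the pairs named here, shared libraries were not tested against the coverage of the libraries. HSPA13, a short HSP70 of microsomes, was above 0 in 15 libraries up to 1.99 FPKM. HSPH1, a cytosolic HSP110, was above 0 in 11 libraries and highest in HSG-10 at 4.1 FPKM.

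Mitochondrial folding rests on HSPD1 (HSP60) and its lid HSPE1 (HSP10), which are neighbours in the RefSeq gene table. HSPD1 was above 0 in 16 libraries and highest in HMG-5 at 4.91 FPKM, followed by LLG-8 at 4.45 and LMG-7 at 3.23. HSPE1 was above 0 in 18 libraries and highest in HSG-8 at 3.87 FPKM, followed by LSG-10 at 3.69 and LSG-5 at 2.1. Both were above 0 in 11 libraries and neither in 7, so the neighbours were often seen apart. Closely related copies of HSPA8, HSPD1, HSPE1 and the HSP90 genes are common in mammalian genomes. Because only uniquely aligned reads were kept, the values of such genes are uncertain.

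Small heat shock proteins bind unfolding proteins without ATP. HSPB3, known mainly from muscle, had the highest mean FPKM of the list and was its highest gene in 17 libraries. Its values in HLG were 0.04, 9.36, 27.69, 1.95 and 4.62 FPKM, and in LLG they were 0, 0, 5.45, 0 and 0.49. HMG gave 11.96, 16.32, 60.4, 3.44 and 8.04, and LMG gave 3.74, 3.04, 5.93, 11.75 and 5.47. The HSG values were 0.31, 9.48, 8.4, 0.84 and 4.18, and those of LSG were 13.13, 3.31, 4.74, 1.57 and 9.62. The 3 libraries at 0 were all of LLG, and 2 of them, LLG-5 and LLG-7, were among the 4 poorest. All groups overlapped. HSPB1 (HSP27), the abundant actin-linked member, was above 0 in only 2 libraries, at 39.79 FPKM in HLG-5 and 3.49 in LSG-5. The other 3 small heat shock proteins were above 0 in at most 4 libraries and never above 1.7 FPKM.

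The DNAJ proteins deliver substrates to HSP70. DNAJA1, a cytosolic partner of HSPA8, was above 0 in 21 libraries and had the lowest p of the list in any contrast. In LSG its values were 3.35, 13.97, 3.05, 15.9 and 3.4 FPKM, whereas in HSG they were 0, 0, 4.33, 0 and 0. HMG gave 1.42, 2.58, 0, 1.26 and 2.43, and LMG gave 3.09, 0.46, 1.18, 6.16 and 0.1. In HLG the values were 0, 0, 0, 5.06 and 0.03, and in LLG they were 0.02, 0, 0.05, 0.25 and 0.03. All 5 LSG libraries were above 3 FPKM, and HSG-8 was the one HSG library that reached into their range. HSPA8 and DNAJA1 were both above 0 in 16 libraries and both at 0 in 3. DNAJA2, a second cytosolic partner of HSPA8, was above 0 in 17 libraries and highest in LSG-8 at 4.73 FPKM.

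Among the DNAJB genes, DNAJB14, which sits in the membrane of the endoplasmic reticulum, was above 0 in 21 libraries, with 6.62 FPKM in HLG-9 and 6.59 in LLG-10. DNAJB4, a cytosolic member, was above 0 in 20 libraries, and HLG-8 alone, at 22.16 FPKM, held 54.8% of its FPKM. DNAJB1, the heat-inducible HSP40, was above 0 in 6 libraries and did not pass 1.33 FPKM (LLG-8). DNAJB11, a co-chaperone of BiP, reached 41.95 FPKM in LLG-10 and was above 0 in only 3 other libraries, between 0.04 and 1.01 FPKM. LLG-10 is one of the 4 poorest libraries.

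Of the DNAJC genes, DNAJC3, an endoplasmic reticulum protein that also restrains the eIF2α kinases, was above 0 in 18 libraries. Its HMG values were 3.45, 3.64, 4.08, 0 and 1.24 FPKM and its LMG values 0.27, 0.56, 0.23, 0.22 and 0.4. In this way 4 of 5 HMG libraries lay above every LMG library, and the fifth was at 0. DNAJC18 was above 0 in 17 libraries (highest 4.18 FPKM in HMG-8), DNAJC16 in 16 (2.81 in LSG-7) and DNAJC27 in 15 (2.64 in LLG-9). DNAJC9, a histone co-chaperone, and DNAJC6 (auxilin), which uncoats clathrin vesicles with HSPA8, were each above 0 in 14 libraries and both highest in LLG-9, at 8.47 and 2.83 FPKM. DNAJC14 reached 19.84 FPKM in LLG-5, again one of the poorest libraries, and was at most 1.58 FPKM in the 8 other libraries where it was above 0.

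**Figure D4:**
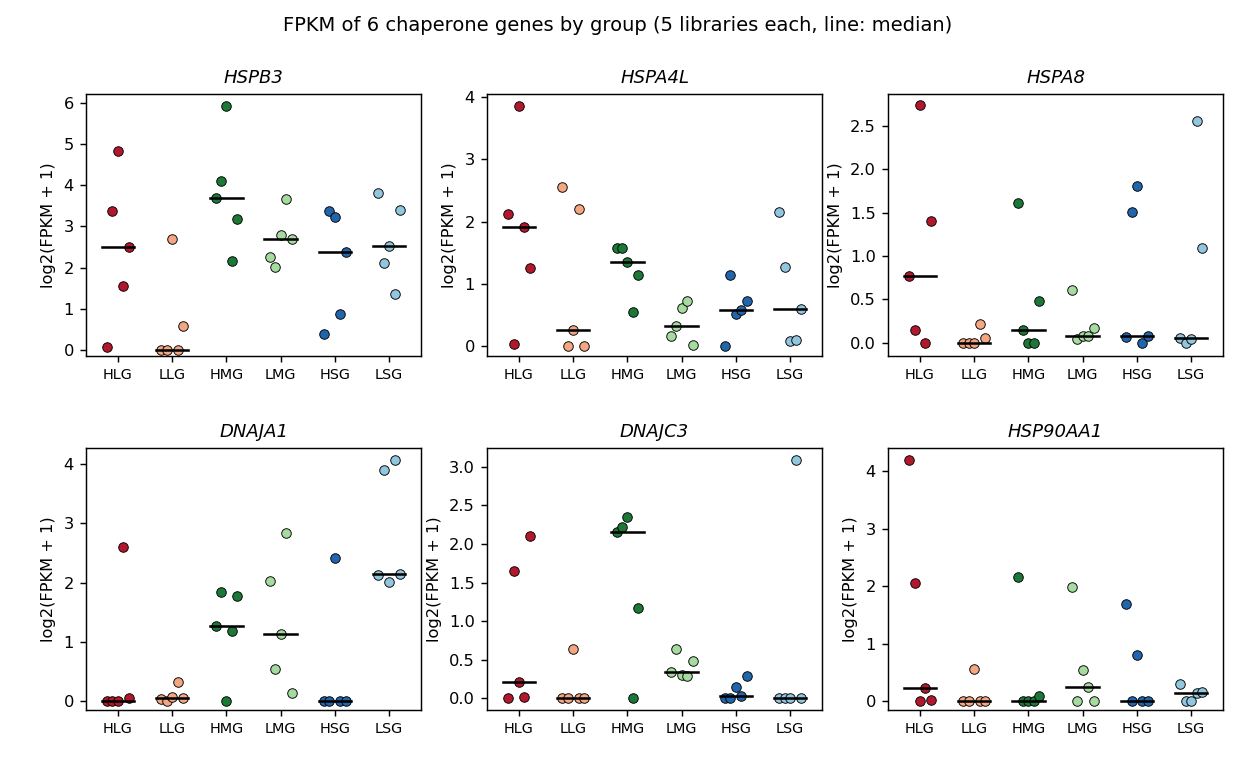
log2(FPKM + 1) of HSPB3, HSPA4L, HSPA8, DNAJA1, DNAJC3 and HSP90AA1 in the 6 groups, with a point per library (5 a group) and a line at the group median. For DNAJA1 the LSG points lie above all HSG points but HSG-8, for DNAJC3 4 of 5 HMG points lie above those of LMG, and for HSPB3 the groups overlap and the LLG median is at 0.

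High values were often those of a single library. In 29 of the 64 genes, one library held more than 50% of the summed FPKM. The median share of the highest library was 47.2%, compared with 54.2% for numbered features. Among genes above 0 in at least 15 libraries the medians were 25.6% for chaperones and 24.7% for numbered features. Only 17 single values passed 10 FPKM, in 11 genes, and 6 of the 17 were of HSPB3. The gene with the highest FPKM differed between libraries, with 13 genes taking this place.

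The first question was whether chaperone levels differ between the fertility classes. In limma on log2(FPKM + 1), 29 of the 64 genes passed the filter (FPKM above 0.5 in at least 5 libraries), and 0 of the 29 passed an adjusted p of 0.05 between HLG and LLG, HMG and LMG, HSG and LSG, or high and low fertility averaged over sizes. The share called among all 6058 features was 0% in each of these. At an unadjusted p under 0.05 limma named 2 chaperone genes in large follicles (6.9%, compared with 4.8% of all features), 1 in medium (3.45%, compared with 5.15%), 2 in small (6.9%, compared with 6.39%) and 0 averaged over sizes (compared with 3.95%). These shares were near those of all features. The 29 are the more often detected genes and do not stand for the whole list. In HLG against LLG, 19 of them were higher and 7 lower. The others, HSPA2, DNAJB7 and DNAJC10, were at 0 in every large library, so their difference in that contrast was fixed at 0.

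In large follicles the genes of lowest p were HSPB3, with a log2 difference of 1.81 ± 0.85 (SE) for HLG over LLG, and HSP90AA1, with 1.19 ± 0.57 (limma adjusted p 0.976 for both, n = 5 and 5). Without HLG-5 the HSP90AA1 difference was 0.47, and without the 4 poorest libraries the HSPB3 difference was 1.12. The median log2 difference of the 29 genes was 0.25, beside 0.10 for all features tested, and without HLG-9 it was 0.10. It was 0.14, beside 0.02 for all features, with the number of features above 0 in a library as a term. Without the 4 poorest libraries, which leaves 2 in LLG, DNAJC9 alone of the list passed the threshold, lower in HLG by −2.67 ± 0.64 (limma adjusted p 0.0492), with 20 features called in all. The 3 LLG libraries left out were all at 0 for DNAJC9, and the 2 kept were at 3.53 and 8.47 FPKM. With all libraries its difference was −1.04 (limma adjusted p 0.976), and without LLG-9 alone it was −0.50. In medium follicles DNAJC3 was higher in HMG by 1.16 ± 0.53 (limma adjusted p 0.885, unadjusted 0.034), and the median of the 29 genes was −0.09, beside −0.07 for all features. With the number of features above 0 in a library as a term, that median turned to 0.18, beside 0.09 for all features.

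In small follicles DNAJA1 was lower in HSG than in LSG by a log2 difference of −2.37 ± 0.66 (limma, unadjusted p 0.00077, adjusted p 0.424), which placed it at rank 8 of 6058 features. Over the alternatives tried, including the omission of single libraries, the difference lay between −4.84 and −2.06, and the adjusted p did not fall under 0.246. Leaving out the poorest libraries gave −2.25. DNAJB7, for which no role is given here, differed by −1.43 ± 0.55 in the same contrast (limma adjusted p 0.625), and it was above 0 in 2 LSG libraries (6.46 and 17.77 FPKM), 4 medium libraries and no HSG library. Without LSG-9 the difference was −0.73. With every HSG library at 0, DNAJB7 could not have come out higher in HSG. Averaged over sizes it also had the lowest p of the list, with −0.61 (limma adjusted p 0.952), or −0.37 without LSG-9. The median of the 29 genes was −0.12 in small follicles, beside −0.09 for all features, and 0.05 averaged over sizes, beside −0.01.

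The difference of DNAJA1 between fertility classes was also compared among sizes. The fertility by size interaction had 0 of 29 chaperone genes past the adjusted threshold, with 0% of all features called, and 2 genes at an unadjusted p under 0.05 (6.9%, compared with 4.67% of all features). They were DNAJA1 (limma F test, unadjusted p 0.00991, adjusted p 0.895) and HSPA4 (unadjusted p 0.0369, adjusted p 0.895). Neither interaction passed the correction.

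The second question was whether levels differ with follicle size. Averaged over fertility, 0 of 29 genes passed the adjusted threshold between large and medium follicles (0% of all features called), between medium and small (0.0165%, which is 1 feature and no chaperone) or between large and small (0%). At an unadjusted p under 0.05 limma named 3 chaperone genes for large against medium (10.3%, compared with 11.5% of all features), 1 for medium against small (3.45%, compared with 5.13%) and 4 for large against small (13.8%, compared with 8.42%). HSPB3 was lower in large than in medium follicles by −1.69 ± 0.60 (limma adjusted p 0.348, and −1.34 without the 4 poorest libraries), DNAJC10, a disulphide reductase of the endoplasmic reticulum, by −0.57 ± 0.20 (0.348) and DNAJA1 by −0.96 ± 0.46 (0.426). DNAJC10 was at 0 in every large library and passed the filter only through medium and small ones. Its difference could therefore not have come out higher in large follicles. The DNAJA1 difference was −0.59 with the number of features above 0 in a library as a term. DNAJC6 was higher in medium than in small follicles by 0.52 ± 0.25 (limma adjusted p 0.938).

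Between large and small follicles the 4 genes were DNAJA1 (−1.36 ± 0.46), HSPA9 (−0.59 ± 0.22), HSPE1 (−0.81 ± 0.32) and HSPA2 (−0.78 ± 0.32), all lower in large follicles and all with a limma adjusted p of 0.557. Without the 4 poorest libraries they were −1.36, −0.68, −0.87 and −0.87. Without HSG-7 alone HSPA9 was −0.39 and HSPA2 −0.47, and HSPE1 was −0.41 with that same coverage term. HSPA2, an HSP70 best known from sperm formation, was above 0 in 0 of 10 large, 4 of 10 medium and 5 of 10 small libraries. HSPA2 thus passed the filter only through medium and small libraries and could not have come out higher in large follicles. HSPE1 was above 0 in 3 large and 8 small libraries, and HSPA9 in 4 and 8. DNAJC10, HSPA2 and DNAJC21 are named because of their values here and fall outside the naming rule.

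Large follicles held 3 of the 4 poorest libraries, and the sign of the list's median changed when the coverage of a library was taken into the model. Of the 29 genes, 20 were lower in large than in medium follicles and 9 higher, with a median log2 difference of −0.22, beside −0.25 for all features. HSPA2, DNAJB7 and DNAJC10, at 0 in every large library, could only count as lower. With the number of features above 0 in a library added to the model, the median of the 29 genes became 0.07, beside 0.002 for all features. For large against small follicles it moved from −0.14 (all features −0.19) to 0.05 (all features −0.05). The medium against small median was 0.09, beside 0.05 for all features, and became −0.04 with that term, beside −0.05.

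**Figure D5:**
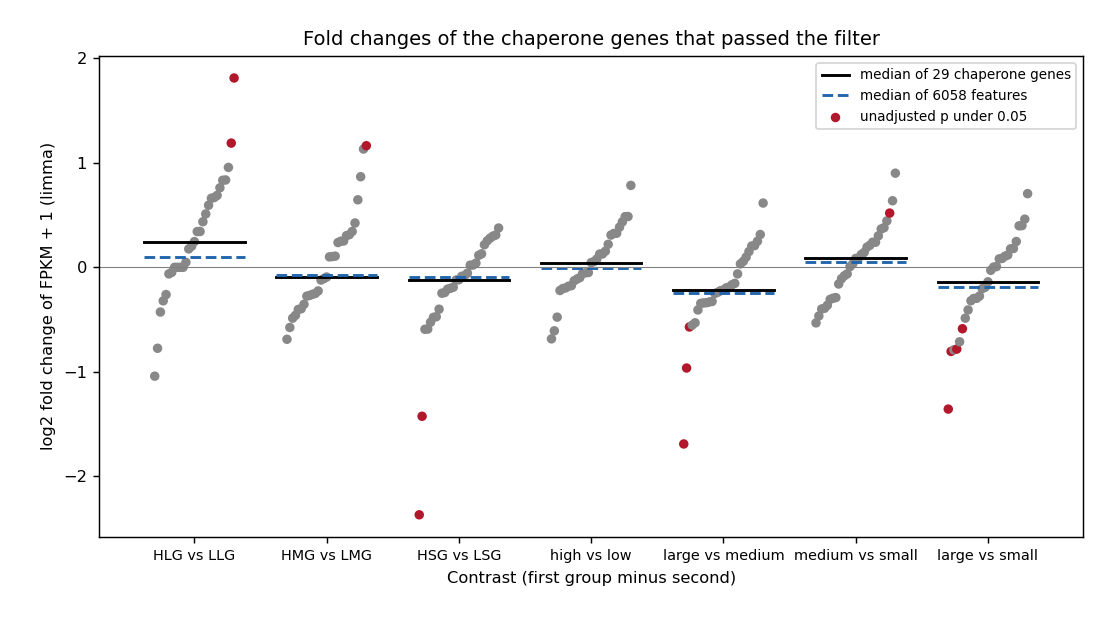
log2 fold changes of FPKM + 1 from limma for the 29 chaperone genes that passed the filter (a point each, sorted within a contrast, red where the unadjusted p is under 0.05) in the 7 contrasts on the x axis. Black lines mark the median of the 29 genes and dashed blue lines the median of all 6058 features. The 2 medians lie close together in every contrast, farthest apart for HLG against LLG (0.25 and 0.10), and DNAJA1 in HSG against LSG is the lowest point.

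Because most values were 0, the number of libraries above 0 was compared as well, by Fisher's exact test over all 20125 features. No chaperone gene passed an adjusted p of 0.05 in the 4 comparisons, in each of which 0% of all features were called. At an unadjusted p under 0.05 there were 2 chaperone genes (3.12%, compared with 0.85% of all features) between the fertility classes. DNAJA1 was above 0 in 7 of 15 high and 14 of 15 low fertility libraries (exact p 0.0142, adjusted p 1), and DNAJC21 in 0 and 5 (exact p 0.0422, adjusted p 1). Of the low fertility libraries with DNAJA1, 4 were of LLG and held no more than 0.25 FPKM. The 2 HLG libraries with DNAJA1 held 5.06 and 0.03 FPKM. DNAJA1 passed 0.5 FPKM in 14 of its 21 libraries, and DNAJC21 in 1 of its 5. Large against medium follicles also gave 2 (3.12%, compared with 6.17%): DNAJC10, in 0 of 10 large and 7 of 10 medium libraries, and HSPA4, in 3 and 10 (exact p 0.0031 and adjusted p 0.346 for each). HSPA4 was the 1 gene named for medium against small (10 and 5 libraries, exact p 0.0325, 1.56% compared with 0.979%), and HSPA2 the 1 gene for large against small (0 and 5, exact p 0.0325, 1.56% compared with 1.66%). The HSPA4 counts include values near 0. It passed 0.5 FPKM in 8 of its 18 libraries, and its median was 0.03 FPKM in HMG and 0.52 in LMG. Of the 64 genes, 49 (76.6%) were above 0 in more medium than large libraries, beside 73.8% of all features.

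Partners of the chaperones were examined from 4 lists. Of 33 features listed as HSP70 and HSP90 cofactors or heat shock factors, the median was above 0 in 5 libraries. Of the 33, 6 were above 0 in at least 15, a share that is 13.55% among numbered features. They include the chaperones CRYAB (above 0 in 4 libraries), TRAP1 (2) and HYOU1 (4), whose symbols fall outside the rule of membership. BAG4, an HSP70 regulator, led with 23 libraries, followed by ST13 (HIP), which binds HSP70, with 19. HSF1, the main factor of the heat shock response, was above 0 in 4 libraries and HSF2 in 13. The 14 genes of the cytosolic chaperonin and prefoldin had a median of 7 libraries, with CCT6A in 18 and CCT4 in 12. The 18 genes of folding and stress signalling in the endoplasmic reticulum had a median of 6, with EDEM1, which targets misfolded glycoproteins for degradation, in 19 and the lectin chaperone CANX in 18. The 10 immediate early genes, which respond quickly to handling of cells, had a median of 7, with FOS in 13 and EGR1 in 11. In limma 10 cofactors, 3 chaperonin or prefoldin genes, 5 genes of the endoplasmic reticulum list and 2 immediate early genes passed the filter, and 0 of them passed an adjusted p of 0.05 in any contrast in either direction. At an unadjusted p under 0.05 the most in 1 contrast was 2 of the 10 cofactors, for large against small follicles. Of all features, 8.42% were named in that contrast. In the other lists no contrast had more than 1 such gene, of 2 to 5 tested.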

How the data were processed

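The authors deposited FPKM values with 2 decimals for 20125 features in 30 libraries of rRNA-depleted total RNA. Per the study's methods, uniquely aligned reads were kept, duplicates were removed with picard and FPKM was computed with Cufflinks. The aligner and genome build are not given in the sources used here, nor is the use of strand, so reads of overlapping antisense genes cannot be told apart. Ensembl is named as the annotation, yet 17946 features have NCBI gene numbers. Symbols came from the RefSeq gene table of ARS1.2 (17945 numbers matched), used for names and neighbours only.

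Groups followed the labels. Log2(FPKM + 1) was tested with limma 3.58.1 in R 4.3.3, fitting the 6 groups together with a robust, trended prior. The 6058 features that passed 0.5 FPKM in 5 or more libraries were tested. The number of libraries above 0 was compared by Fisher's exact test over all 20125 features. Tests were two-sided, with Benjamini-Hochberg adjustment over all features tested and a threshold of 0.05. A fold change on the log2(FPKM + 1) scale understates the change of low genes. The scripts were tested on simulated data. Figures used Python 3.11.15 with matplotlib 3.10.9. The deposited table holds no read numbers and those of the study's supplement were not used, so no counting interval is given.

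The genes named are the core members of each family, the 20 above 0 in the most libraries, the lowest p in each contrast and the highest FPKM of each family. The first list of partners held HSP70 and HSP90 cofactors with heat shock factors, and the chaperones CRYAB, TRAP1 and HYOU1. The others were the cytosolic chaperonin with prefoldin, folding in the endoplasmic reticulum and immediate early genes. Markers of granulosa, oocyte, theca, immune, endothelial and red cells were used beside them. Members and lists were chosen with earlier results of these data known. The alternatives were another pseudocount, other filters, rescaled FPKM, only the groups compared, sample weights, a plain prior, library coverage as a covariate, the library number as a block and the omission of libraries. No sequences were printed.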

Additional observations from a re-analysis of the deposited data

Results flagged for a closer look

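In each group of 5 libraries the highest and the lowest value were compared with the rest, for the number, summed FPKM and share of the chaperone genes and for the 20 genes most often above 0, in groups where at least 4 libraries were above 0. In 14 of 63 such sets the gap to the nearest library took up more of the group's range than Dixon's 95% limit for 5 samples allows. Chance alone marks about 1 in 20 sets, and the limit assumes values with a symmetric spread, whereas FPKM has a long upper tail.

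The summed FPKM of the 64 chaperone genes was 35.89 in LMG-9, with the other LMG libraries between 25.68 and 26.72. HLG-8 stood apart in HSPA4L, at 13.56 FPKM against 0.03 to 3.38 in the rest of HLG, and in HSPA8, at 5.66 FPKM against at most 1.64. HSPA8 also stood apart in LMG-5, at 0.52 FPKM against 0.03 to 0.13, and in LSG-9, at 4.89 FPKM against at most 1.14. HSPB3 was 60.4 FPKM in HMG-8 and 3.44 to 16.32 in the other HMG libraries. HSP90AA1 was 17.35 FPKM in HLG-5 and at most 3.16 in the other HLG libraries.

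The mitochondrial chaperones each had such a library. HSPA9 was 4.14 FPKM in HSG-7 (others at most 0.63), HSPE1 was 3.87 in HSG-8 (others at most 0.86) and HSPD1 was 3.23 in LMG-7 (others at most 0.31). HSPA4 was 0.62 FPKM in HMG-5 (others 0.01 to 0.14), DNAJA1 was 0.25 in LLG-9 (others at most 0.05), DNAJB4 was 4.44 in LMG-10 (others at most 1.21) and DNAJC9 was 3.42 in LMG-8 (others 0.04 to 0.49). In all 14 the library that stood apart was the highest of its group.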

How the results depend on the processing

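None of the gene differences recomputed here (the lowest p in each contrast, those at an unadjusted p under 0.05, and DNAJC9 between HLG and LLG) changed sign under any alternative, and no chaperone gene passed an adjusted p of 0.05 under any of them other than DNAJC9 between HLG and LLG without the 4 poorest libraries, where 1 chaperone gene and 20 features were called (an alternative chosen after seeing the data). Over all features, the calls between large and medium follicles were 0 as reported and 5 with a pseudocount of 0.1. They were 3 with the filter at 10 libraries, 12 with sample weights and 4 with a plain prior, and no chaperone gene was among them. Large against small gave 1 with the pseudocount of 0.1 and 2 with the filter at 10 libraries, HSG against LSG gave 1 with that filter, and sample weights gave 1 in HLG against LLG and 1 in HMG against LMG. HLG against LLG also gave 1 without the 4 libraries that the study's mapping list leaves out. High against low fertility gave 2 without the 4 poorest libraries. The 1 feature called for medium against small fell to 0 with no filter, with only the groups compared, with sample weights, with the covariate and without either set of 4 libraries. Which features these were was not compared, and the cause was not tested.

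The library numbers were checked as a possible pairing of the samples. Over 75 pairs with the same number the correlation of deviations from the group means ran from −0.034 to 0.124 (median 0.006, and −0.002 for other numbers). Of 30 libraries, 7 correlated best with a library of their own number, and no chance level was computed. The highest Spearman correlation between any 2 libraries was only 0.216, so this check cannot decide whether the numbers pair the samples. With the replicate block the calls for medium against small follicles were 0 in place of 1, and no other call changed.

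Leaving out single libraries gave 0 to 3 calls for HMG against LMG, 0 to 1 for HSG against LSG, 0 to 4 for large against medium (4 without LLG-8), 0 to 1 for large against small, 0 to 2 for medium against small and 0 to 5 for the number of libraries above 0 between large and medium (5 without HLG-10). Chaperone genes called stayed at 0 in these. Genes above 0 in at least 15 of 30 libraries, or the same share, ranged from 14 to 18. Medians over the 29 genes changed sign on omission of a library for high against low fertility (−0.045 to 0.092), HMG against LMG (−0.176 to 0.086) and medium against small (−0.033 to 0.107). They kept their sign for HLG against LLG (0.101 to 0.342), HSG against LSG (−0.191 to −0.032), large against medium (−0.256 to −0.175) and large against small (−0.222 to −0.043). With no filter the HLG against LLG median over all 64 genes was 0. With a pseudocount of 0.1 the gene differences were larger, DNAJA1 in HSG against LSG reaching −4.84.

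The number of chaperone genes per library depended on the limit. At 0.5 FPKM or more the group means were 8.2 in HLG, 4.2 in LLG, 12.8 in HMG, 14.2 in LMG, 11.2 in HSG and 13.4 in LSG. At 1 FPKM or more they were 7.2 in HLG, 3.8 in LLG, 9.6 in HMG, 8 in LMG, 7.6 in HSG and 9.8 in LSG. LMG thus no longer led at 1 FPKM, whereas LLG was lowest at both limits. Without read numbers in the deposited table, a gene at 0 cannot be told from one not sampled.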
